A study of Mus musculus with 2 samples.

Results

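The protein kinase C family was followed in leukemic stem and progenitor cells of mouse bone marrow, through the 8 isoform genes Prkca, Prkcb, Prkcd, Prkce, Prkch, Prkcq, Prkcz and Prkci out of 32285 genes in the files. The members were taken by name and not by their values, and each was read in both libraries, over all called cells and within cell groups gated on marker genes. The sorted fraction was LSK (lineage-negative, Sca-1-positive, c-Kit-positive), which holds hematopoietic stem cells and early multipotent progenitors. All mice carried SCLtTA/BCR-ABL on a B6 background, a model of chronic myeloid leukemia (CML) in which withdrawal of tetracycline switches BCR-ABL on in cells that use the SCL promoter, here for 2 weeks. The miR-142 WT CML library came from mice with intact miR-142, and the miR-142 KO CML library from mice that were in addition miR-142-/-, all of them 8 to 10 weeks old. There was 1 library per genotype, the number of mice pooled in each was not given, and no normal mouse entered the comparison. No test of genotype was therefore possible, each interval below is a 95% interval that covers counting error only, and a difference between libraries cannot be told apart from a difference between the mice, sorts or captures behind them.

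Protein kinases C are serine/threonine kinases that carry signals from lipid second messengers. The conventional isoforms (PKCα from Prkca, PKCβ from Prkcb) need calcium and diacylglycerol, the lipid that phospholipase C releases in the membrane. The PKC isoforms δ (Prkcd), ε (Prkce), η (Prkch) and θ (Prkcq) are called the new class, which needs diacylglycerol but no calcium, and the atypical isoforms ζ (Prkcz) and ι (Prkci) need neither and work through protein partners in cell polarity. In blood, PKCβ is known from B cells and mast cells, PKCθ from T cells and platelets, and PKCα, PKCδ and PKCθ from platelet signaling. PKCα was the isoform that the study tied to miR-142.

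A barcode was called a cell at 8000 or more unique molecular identifiers (UMIs, 1 per captured RNA molecule) and under 10% mitochondrial UMIs, which left 5363 WT and 5458 KO cells with medians of 19443 and 24182 UMIs. These libraries shared 4 barcodes. Mir142hg, the host transcript of the deleted miRNA, had 1260 UMIs in WT and 20 in KO. The sort markers Kit, Ly6a (Sca-1) and Cd34 together summed to 438 UMIs per 1000000 (CPM) in WT and 420 CPM in KO. Cells were assigned to groups by marker lists that contain no member, and 10 groups held 30 or more cells in both libraries. The mix of groups differed widely: granule-high cells (Elane, Mpo, Prtn3, Ctsg, Ms4a3) were 815 in WT and 2690 in KO, or 33.2% and 68.5% of all UMIs, while HSC-like cells (Mecom, Procr, Mllt3 and others) were 1010 and 269. A value over all cells can thus differ because a cell type is rarer or because each cell holds less of the RNA, and these cannot be told apart there. For this reason each member is given over all cells, then weighted to a common mix of the 10 groups (the mean of both libraries' UMI shares), then group by group. The groups are ranges of per-cell marker scores and not proven cell types.

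Summed over the 8 genes, protein kinase C transcripts stood at 91.6 CPM in WT (12662 UMIs, 90.0 to 93.2) and 72.6 CPM in KO (11508 UMIs, 71.3 to 74.0), a log2 ratio (KO over WT) of -0.34 (-0.37 to -0.30). With both libraries weighted to the same mix of cell groups the log2 ratio was -0.19 (-0.23 to -0.14). Over all cells 4 members lay at least 1.5-fold lower in KO, namely Prkce, Prkcq, Prkch and, at 1.51-fold, Prkca. None lay 1.5-fold higher. Of the 11652 genes with a mean of at least 1 CPM, 12.2% were at least 1.5-fold lower in KO and 4.02% at least 1.5-fold higher. The median log2 ratio of the members was -0.46, beside -0.12 for all genes tested. With a common mix of cell groups only Prkce of the 8 stayed past 1.5-fold, where 4.78% of all genes were lower and 3.3% higher, and the medians were -0.15 for the members and -0.061 for all genes. Scaling by size factors in place of library totals shifted every log2 ratio by 0.069 upward and left Prkca at -0.52, inside the 1.5-fold line.

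**Figure D1:**
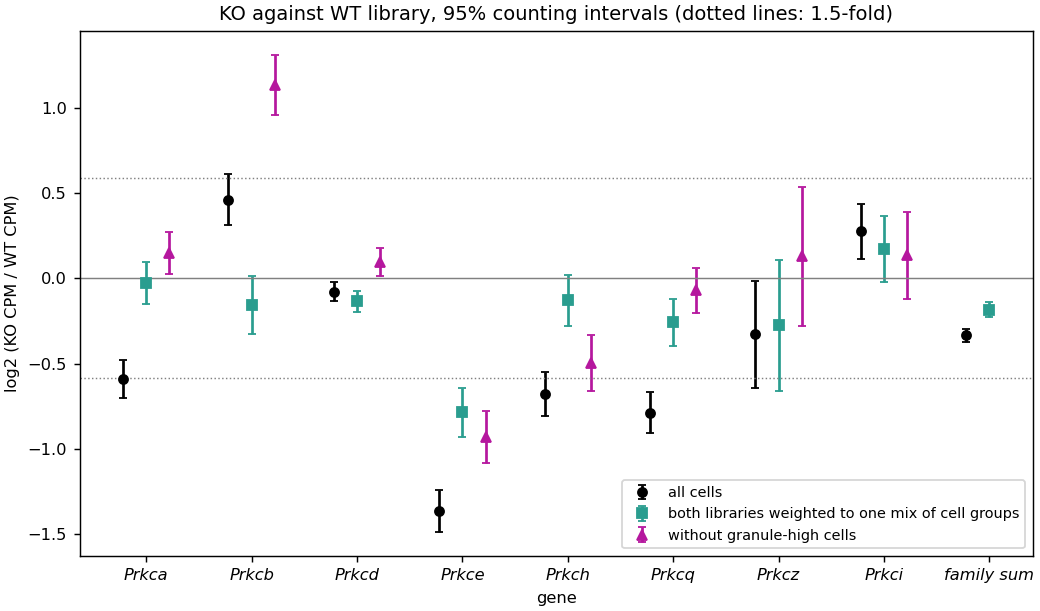
The log2 ratio of KO over WT CPM (vertical axis) is plotted for each isoform gene and for their sum, over all cells (circles), weighted to a common mix of 10 cell groups (squares) and without granule-high cells (triangles, not drawn for the sum), with 95% counting intervals and dotted lines at 1.5-fold. Prkce lies below the lower dotted line in all 3 versions, while Prkca moves from -0.59 to -0.026 and 0.15.

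Prkca (ENSMUSG00000050965, chromosome 11, 107933387 to 108343928, minus strand, GRCm38) encodes PKCα. Over all cells it had 1559 UMIs in WT and 1187 in KO, 11.3 CPM (10.7 to 11.9) against 7.49 CPM (7.07 to 7.93), and a log2 ratio of -0.59 (-0.70 to -0.48). Weighted to a common mix of groups, the WT and KO levels were 9.22 and 9.05 CPM and the log2 ratio -0.026 (-0.15 to 0.097), an interval that includes 0. Within groups it was lower in KO in 5 and higher in 5, and only in ungated S-phase cells did the interval leave 0, at 10.7 CPM (WT) and 6.43 CPM (KO) (log2 ratio -0.74, -1.19 to -0.31). Without the granule-high cells, which held little Prkca in either library (2.09 and 2.86 CPM), the levels were 15.9 and 17.5 CPM and the log2 ratio was 0.15 (0.024 to 0.27). The direction of the Prkca difference thus depended on which cells were counted.

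The level of Prkca differed far more between cell groups than between libraries. It was highest in the basophil/mast gate (Mcpt8, Prss34, Cpa3, Ms4a2, Fcer1a), at 44.3 CPM in WT (38.2 to 51.0) and 43.3 CPM in KO (38.5 to 48.5). The megakaryocyte gate (Pf4, Itga2b, Gp1bb, Gp9) followed with 34.4 CPM (29.5 to 40.0) and 35.9 CPM (30.1 to 42.4), and its interval overlapped that of the basophil/mast gate in both libraries. HSC-like cells came next with 22.7 CPM (20.3 to 25.2) and 19.3 CPM (14.9 to 24.6). The lymphoid-primed and ungated groups lay between 10.5 and 13.6 CPM in WT and between 6.43 and 13.6 CPM in KO. In the 3 granule-high groups Prkca lay between 1.77 and 3.63 CPM, which was under the 8.46 CPM in WT and 4.73 CPM in KO measured in barcodes under 100 UMIs, the level of free RNA. That CPM is a share of the free RNA and not the amount of it in a cell. The barcodes under 100 UMIs held 12060603 UMIs over 1599615 barcodes in WT and 16068691 over 1762766 in KO. Granule-high cells had medians of 55901 and 39292 UMIs. The part of free RNA in their Prkca counts was not tested. After each cell was thinned to 8000 UMIs, so that depth was equal, 10.4% of the WT cells (9.64 to 11.3) and 8.15% of those from KO (7.44 to 8.91) still showed a Prkca UMI, beside 22.8% and 17.3% without thinning. The share was 31.1% and 31.6% in the basophil/mast gate, against 1.21% and 2.07% in monocyte-leaning granule-high cells.

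Because the study named Prkca as a target of miR-142, the mature arms of the miRNA and the matching stretches in the Prkca transcript are shown, with the seed (bases 2 to 8) and its reverse complement in capitals. The miRNA sequences are from RefSeq (GRCm38.p6, chr11:87756867-87756887 for the 5p arm and chr11:87756903-87756925 for the 3p arm, plus strand), and the transcript stretches are from the longest annotated 3′ untranslated region (UTR), of 6129 bases.
mmu-miR-142a-5p: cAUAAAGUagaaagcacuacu
mmu-miR-142a-3p: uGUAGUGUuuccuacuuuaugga
Prkca site 1 (chr11:107938347-107938375, minus strand): aggatcaagatACTTTATgctgatatcaa
Prkca site 2 (chr11:107937548-107937576, minus strand): ccttgagacaaACTTTATctccatgcctg

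The heptamer ACTTTAT, which pairs with the 5p seed, occurred 2 times in the Prkca UTR, at bases 1152 and 1951, and the heptamer ACACTAC of the 3p arm did not occur. Neither copy was followed by A. Only the sense strand was searched. None of the other 7 members held either heptamer in its longest annotated UTR, which ran from 513 bases (Prkcd) to 3232 bases (Prkce). A match to the 5p seed shorter by 1 base occurred 7 times in the Prkca UTR, the 2 heptamers among them. It occurred 1 time in that of Prkce and in no other member. Whether these shorter matches were followed by A was not searched. Over 20869 genes with an annotated UTR, 14.4% held ACTTTAT and 6.05% held ACACTAC. The Prkca UTR is long, and among 619 UTRs within 20% of its length 50.9% held ACTTTAT. A match of letters is a description of the sequence and not a measured site.

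Prkce (ENSMUSG00000045038, chromosome 17, 86167785 to 86657919, plus strand) encodes PKCε and was the member that differed most between the libraries. Over all cells it had 1754 UMIs in WT and 782 in KO, 12.7 CPM (12.1 to 13.3) against 4.94 CPM (4.60 to 5.29), and a log2 ratio of -1.36 (-1.49 to -1.24). With a common mix of groups the log2 ratio was -0.79 (-0.93 to -0.64). It was lower in KO in 10 of 10 groups, and the interval lay below 0 in 7. Free RNA held Prkce at 6.47 CPM (WT) and 2.86 CPM (KO), a gap of the same direction. Monocyte-leaning and neutrophil-leaning granule-high cells lay below that level in both libraries, and the remaining granule-high cells lay near it in WT (6.51 CPM), while the other groups were above it. HSC-like cells held 24.99 CPM in WT (22.5 to 27.7) and 13.4 CPM in KO (9.75 to 17.9). The megakaryocyte gate held 25.8 CPM (21.6 to 30.7) and 15.3 CPM (11.6 to 19.8). These 2 groups were the highest in both libraries and did not differ from each other beyond their intervals. The largest ratio was in the lymphoid-primed gate (Flt3, Dntt, Satb1), at 16.5 CPM (WT) and 8.02 CPM (KO) (log2 ratio -1.04, -1.72 to -0.42). Ungated non-cycling, S-phase and G2/M cells had log2 ratios of -0.99, -0.87 and -0.81, so the lower level in KO was seen in cycling and non-cycling cells. The intervals included 0 in monocyte-leaning (-0.22) and neutrophil-leaning (-0.64) granule-high cells and in the basophil/mast gate (-0.44).

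In the HSC-like gate Hlf, a stem cell transcription factor left out of the gate, stood at 220 CPM (WT) and 99.2 CPM (KO). Among HSC-like cells with an Hlf UMI it was at 258 and 175 CPM (log2 ratio -0.56, -0.73 to -0.40). Whether the gate held other cells in KO, or cells with less Hlf RNA each, was not tested. In HSC-like cells with an Hlf UMI (839 WT and 145 KO cells) Prkce was at 25.6 and 11.002 CPM (log2 ratio -1.22, -1.93 to -0.58). In those without (171 and 124 cells) it was at 21.5 and 16.5 CPM, and the interval of the log2 ratio, -1.16 to 0.36, included 0. The part of cell state in the Prkce difference was not tested further. Among thinned cells 11.04% from WT (10.2 to 11.9) and 4.93% from KO (4.37 to 5.54) showed a Prkce UMI, beside 25.8% and 12.3% without thinning. In monocyte-leaning granule-high cells the thinned shares were 2.02% and 1.66%. This group had the lowest level, with a CPM below that of free RNA, and the part of free RNA in these shares was not tested.

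**Figure D2:**
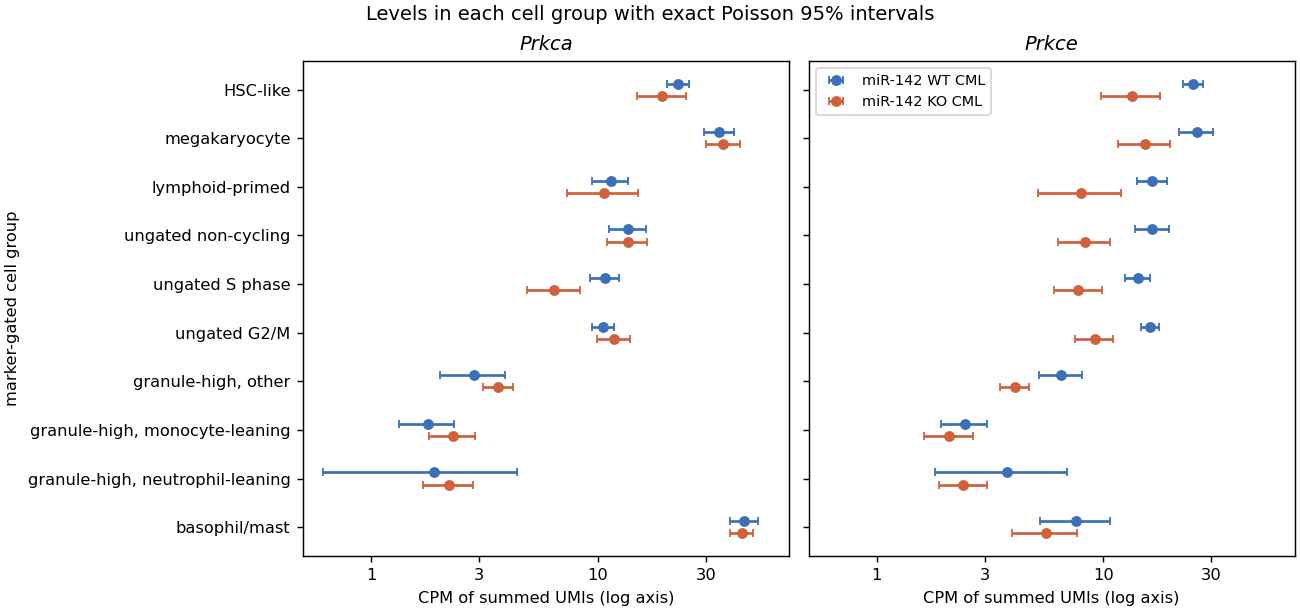
CPM of Prkca (left) and Prkce (right) on a log axis in each of the 10 cell groups, for the WT library (blue) and the KO library (orange), with exact Poisson 95% intervals. The Prkca points of both libraries lie close together in most groups and span 24.97-fold (WT) and 19.6-fold (KO) across groups, whereas the KO point of Prkce lies below the WT point in each group.

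Prkcb (ENSMUSG00000052889, chromosome 7, 122288751 to 122634402, plus strand) encodes PKCβ, and its transcripts were concentrated in the basophil/mast gate. That gate held 3.65% of WT cells and 5.97% of KO cells, yet 62.8% and 54.6% of all Prkcb UMIs. Its level there was 87.2 CPM in WT (78.6 to 96.4) and 76.4 CPM in KO (69.99 to 83.3). The next group, neutrophil-leaning granule-high cells, reached 8.29 CPM (5.20 to 12.6) and 5.63 CPM (4.80 to 6.57), and the other 8 groups lay between 0.334 and 3.10 CPM. Free RNA held Prkcb at 4.81 and 3.86 CPM, above the level of those 8 groups in both libraries.

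Over all cells Prkcb was higher in KO, at 602 UMIs (4.36 CPM) in WT and 950 UMIs (5.996 CPM) in KO, with a log2 ratio of 0.46 (0.31 to 0.61). Over barcodes with over 300 UMIs, the cutoff of the study, the levels were 7.02 and 7.11 CPM and the log2 ratio 0.019 (-0.10 to 0.14), an interval that includes 0. With a common mix of groups it was -0.16 (-0.33 to 0.013), an interval that includes 0. Outside the basophil/mast gate the levels were 1.67 and 2.84 CPM (log2 ratio 0.76), and without granule-high cells they were 5.39 and 11.8 CPM (1.13, 0.96 to 1.31), past 1.5-fold. In monocyte-leaning granule-high cells Prkcb was at 1.57 CPM (WT) and 3.10 CPM (KO) (log2 ratio 0.98, 0.46 to 1.51), the only group whose interval lay above 0.

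Inside the basophil/mast gate the cells were divided at 20 UMIs of Mcpt8 and Prss34 per 10000, a division made after the values were seen. The cells low in these basophil proteases (118 WT and 248 KO cells) were rich in Kit, at 419 and 343 CPM, and in the mast cell protease gene Cpa3. There Prkcb stood at 145 CPM in WT (130 to 162) and 100.2 CPM in KO (91.3 to 110). The cells high in Mcpt8 and Prss34 (78 in each library) had 30.5 CPM (23.7 to 38.8) and 22.6 CPM (16.6 to 30.1). Both libraries thus had over 4-fold more Prkcb on the low Mcpt8 side. There the KO interval lay below that of WT, while on the high side the intervals overlapped. Prkca showed no such division in WT (45.8 CPM low, 42.8 CPM high) and a smaller one in KO (48.0 CPM, 41.9 to 54.6, against 32.7 CPM, 25.4 to 41.5). Prkce divided in the same direction as Prkcb. In WT it was at 12.1 CPM low (7.93 to 17.8) and 3.19 CPM high (1.28 to 6.57), where the intervals lay apart. In KO it was at 7.004 CPM low (4.82 to 9.84) and 2.41 CPM high (0.78 to 5.61), where they overlapped. Prkcd divided in this direction too, with intervals apart in both libraries. It was at 101 CPM low (88.3 to 116) and 67.9 CPM high (57.4 to 79.7) in WT. In KO the Prkcd levels were 101 CPM low (91.7 to 110) and 52.4 CPM high (43.05 to 63.2).

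Prkcd (ENSMUSG00000021948, chromosome 14, 30595354 to 30626210, minus strand) encodes PKCδ and was the most abundant isoform transcript by UMIs. It had 5392 UMIs in WT and 5855 in KO, 39.0 CPM (38.0 to 40.1) against 37.0 CPM (36.0 to 37.9), and a log2 ratio of -0.078 (-0.13 to -0.025) over all cells and -0.14 (-0.20 to -0.072) with a common mix of groups. It was also the most evenly spread of the abundant isoforms. Its lowest group was the megakaryocyte gate in WT at 24.8 CPM and ungated S-phase cells in KO at 27.6 CPM. Its highest was the basophil/mast gate at 84.4 CPM (76.0 to 93.5) and 85.9 CPM (79.0 to 93.1), a span of 3.40-fold in WT and 3.11-fold in KO, where Prkca spanned 24.97-fold and 19.6-fold. Free RNA held Prkcd at 35.0 and 32.3 CPM, about the level of most groups. Of the 10 groups 3 had intervals below 0, all of them small: monocyte-leaning granule-high cells at -0.25, ungated G2/M cells at -0.23 and the remaining granule-high cells at -0.21.

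Prkch (ENSMUSG00000021108, chromosome 12, 73584796 to 73778185, plus strand) encodes PKCη. It had 1193 UMIs in WT and 856 in KO, 8.63 against 5.40 CPM, with a log2 ratio of -0.68 (-0.80 to -0.55) over all cells and -0.13 (-0.28 to 0.020) with a common mix of groups. HSC-like cells were highest in both libraries, at 20.8 CPM (18.6 to 23.3) and 15.4 CPM (11.5 to 20.2), followed by the megakaryocyte gate at 17.0 and 12.9 CPM, whose intervals overlapped those of HSC-like cells. Of the 10 groups the basophil/mast gate, where Prkcb and Prkcd were highest and Prkca too, held the least Prkch, at 2.08 and 2.65 CPM (9 and 18 UMIs). Its intervals (0.95 to 3.94 and 1.57 to 4.19) overlapped those of each granule-high group. All these groups lay under the free RNA level of Prkch, 5.72 and 5.17 CPM. Prkch was lower in KO in HSC-like cells (log2 ratio -0.43, -0.89 to -0.0045) and in ungated non-cycling cells (-0.53, -0.98 to -0.10), and higher in KO in monocyte-leaning granule-high cells (0.62, 0.17 to 1.08).

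Prkcq (ENSMUSG00000026778, chromosome 2, 11172108 to 11301222, plus strand) encodes PKCθ. It had 1430 UMIs in WT and 950 in KO, 10.3 against 5.996 CPM, with a log2 ratio of -0.79 (-0.91 to -0.67) over all cells, -0.26 (-0.40 to -0.12) with a common mix of groups and -0.070 (-0.20 to 0.062) without granule-high cells. In the basophil/mast gate it was at 37.1 CPM in WT (31.6 to 43.3) and 18.0 CPM in KO (14.9 to 21.5), a log2 ratio of -1.05 (-1.40 to -0.70), while Prkca and Prkcd in those same cells differed little between libraries. The lower KO level was seen among cells high in Mcpt8 and Prss34 (37.4 and 16.8 CPM) and among cells low in them (36.9 and 18.5 CPM). The megakaryocyte gate, the highest group of KO, held 24.8 and 24.3 CPM (log2 ratio -0.033, -0.44 to 0.37). In HSC-like cells Prkcq was at 23.4 CPM (WT) and 16.6 CPM (KO) (-0.49, -0.93 to -0.084). It was nearly absent from monocyte-leaning granule-high cells of WT, at 0.77 CPM (23 UMIs), and stood at 2.19 CPM (70 UMIs) in those of KO, both under the free RNA level of 7.96 and 6.41 CPM. The T-cell markers Cd3e, Cd3d, Cd3g and Cd8a had 61 UMIs in WT and 68 in KO over all cells, with Cd3e at 0 and 2.

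A group gated on innate lymphoid genes (Il7r, Icos, Gata3, Il1rl1 and others) held 193 KO cells and 8 WT cells, so it entered no comparison and may be a trait of the KO library. Prkcq was the second isoform there at 29.5 CPM (24.9 to 34.7), close behind Prkcd at 32.9 CPM (28.1 to 38.4). Prkcz reached 6.87 CPM (4.75 to 9.59) in it, above its level in each of the 10 groups compared. Elane stood at 1411 CPM summed over these KO cells. Their median granule score was 20.4 per 10000 UMIs, near the 20.3 of ungated non-cycling KO cells and below the granule-high threshold of 60. The summed Elane level thus does not describe each cell.

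The atypical isoforms were the least abundant. Prkcz (ENSMUSG00000029053, chromosome 4, 155260129 to 155361361, minus strand) had 183 UMIs in WT and 167 in KO, 1.32 and 1.05 CPM, with a log2 ratio of -0.33 (-0.64 to -0.019) over all cells. The interval included 0 with a common mix of groups (-0.28, -0.66 to 0.11) and over barcodes with over 300 UMIs (-0.053, -0.34 to 0.23). Prkcz lay between 0.40 and 2.08 CPM in the 10 groups with no interval away from 0. Prkci (ENSMUSG00000037643, chromosome 3, 30995747 to 31052959, plus strand) had 549 and 761 UMIs, 3.97 and 4.80 CPM, with a log2 ratio of 0.27 (0.11 to 0.43) over all cells and 0.17 (-0.020 to 0.36) with a common mix of groups. It was nearly flat, between 2.002 and 5.39 CPM in each group of both libraries. The Prkci interval lay above 0 in the megakaryocyte gate (10 and 20 UMIs, log2 ratio 1.40, 0.24 to 2.66) and in the basophil/mast gate (9 and 31 UMIs, 1.14, 0.031 to 2.39).

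**Figure D3:**
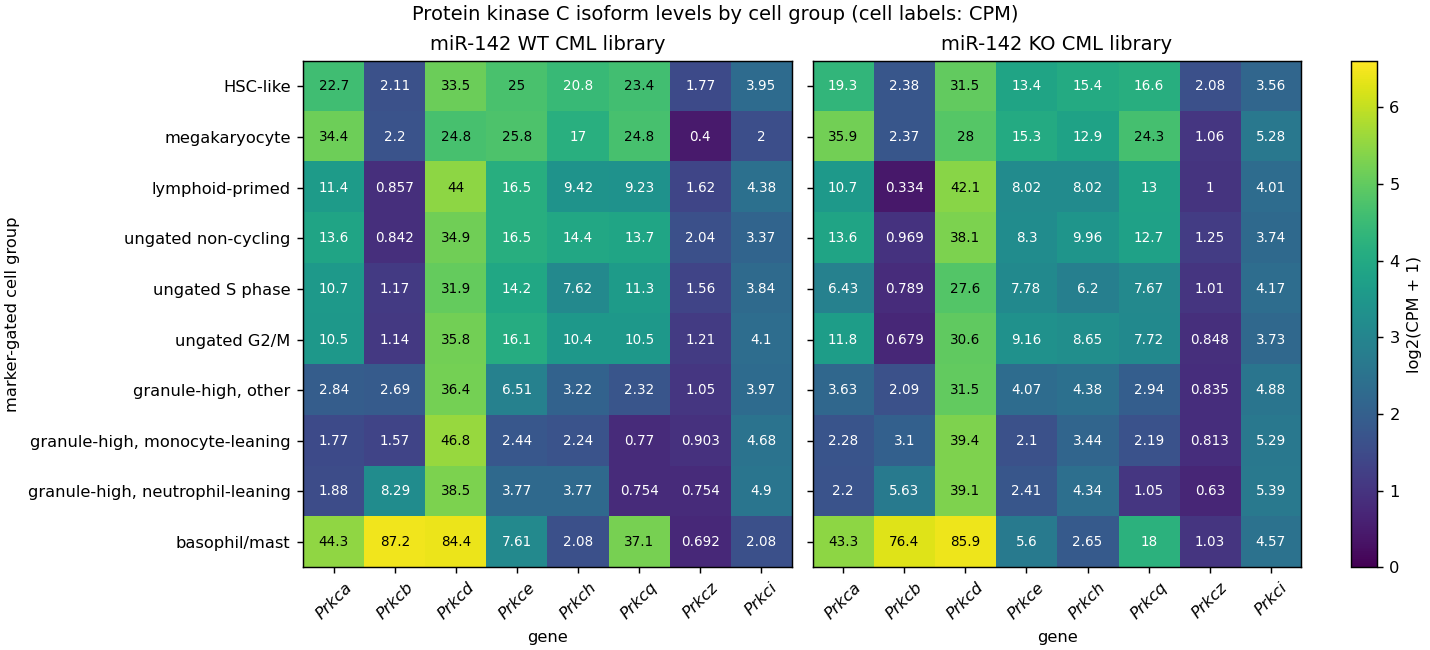
CPM of the 8 isoform genes (columns) in the 10 cell groups (rows) of the WT library (left) and the KO library (right), with color as log2(CPM + 1). The basophil/mast row is brightest for Prkcb and Prkcd in both panels, Prkcd is present in every row, and the Prkce column is darker in the KO panel.

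The makeup of the family, as each isoform's share of protein kinase C UMIs, differed between cell groups. Since 1 end of each RNA molecule is counted in a 3′ library, UMIs are not scaled by transcript length, although capture can still differ between genes. Over all cells Prkcd made up 42.6% of these UMIs in WT (41.7 to 43.5) and 50.9% in KO (50.0 to 51.8), and Prkce 13.9% (13.3 to 14.5) and 6.80% (6.34 to 7.27). In monocyte-leaning granule-high cells Prkcd made up 76.5% and 67.2%. In the megakaryocyte gate Prkca led with 26.2% and 28.7%, ahead of Prkce in WT and Prkcd in KO. In the basophil/mast gate Prkcb (32.8% and 32.2%) and Prkcd (31.8% and 36.2%) led together. HSC-like cells had a mixed makeup, with Prkcd at 25.1% and 30.2%, Prkce at 18.8% and 12.8%, and Prkca, Prkch and Prkcq each between 14.8% and 18.5%.

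**Figure D4:**
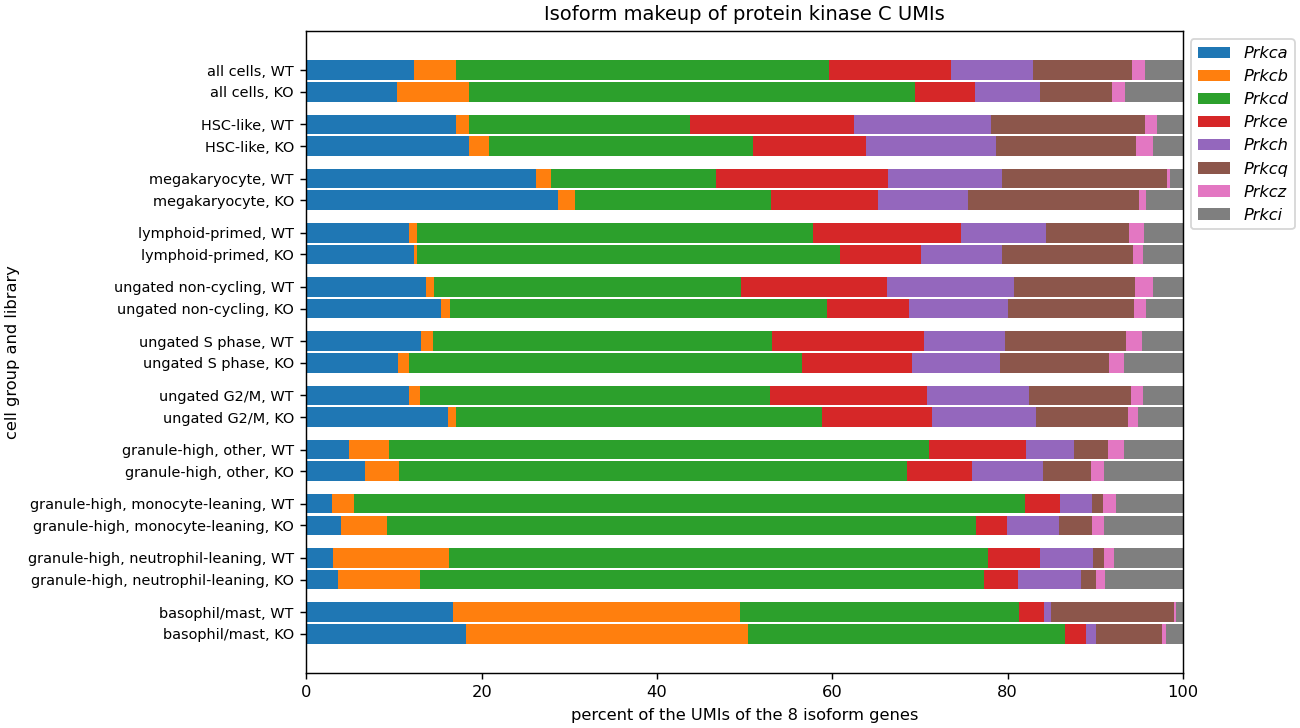
Percent of the UMIs of the 8 isoform genes that each gene contributed (horizontal axis, colors), for all cells and each of the 10 cell groups, WT above KO. The Prkcd bar widens to 76.5% (WT) and 67.2% (KO) in monocyte-leaning granule-high cells, and the Prkcb bar is wide in the basophil/mast gate at 32.8% and 32.2%.

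Counted per cell, the family was carried by 2.36 UMIs in the mean WT cell and 2.11 in the mean KO cell. After thinning, 46.8% of WT cells and 53.8% of KO cells showed no member, and 16.2% and 10.99% showed at least 2 of the genes. Among the 10 groups, cells with at least 2 were most common in the basophil/mast gate (54.1% and 46.6%). The megakaryocyte gate (24.3% and 22.9%) and HSC-like cells (24.3% and 17.1%) followed. They were 5.29% or fewer in each granule-high group. The summed level ran in a like order, from 265 CPM in WT and 237 CPM in KO in the basophil/mast gate to between 54.3 and 62.6 CPM in the granule-high groups, with ungated S-phase cells of KO also low at 61.7 CPM.

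The genes whose profile was most like that of each member were found over 20 points, the 10 groups of both libraries, among 7483 genes with a mean of at least 10 CPM. These correlations of log2(CPM + 1) describe the profiles, and the points share libraries and depth. Nearest to Prkca were F2r (r = 0.98), the thrombin receptor gene, Blvrb (0.98), a heme-pathway reductase, and Gnb4 (0.98), a G-protein beta subunit. Gnb4 was also nearest to Prkcq (0.97), with Rab37 and Sertad1 both at 0.97. Nearest to Prkce were H2-Q7 (0.98), Ssbp3 (0.97) and the carbonic anhydrase gene Car2 (0.97), and nearest to Prkch were Wwc2, Foxn3 and Nbdy (each 0.96). The profiles of Prkcb (Ier3ip1, Tmem9b and Tmsb4x, 0.92 to 0.93) and Prkcd (Mia3, Otulinl and Sh3bgrl3, 0.91 to 0.92) had less close neighbors, and that of Prkci the least close (Ccdc137, 0.82).

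Around the kinases, a list of 79 genes covered makers and consumers of diacylglycerol, maturation kinases, scaffolds, other proteins of diacylglycerol-binding families, substrates and outputs. Of the 59 with a mean of at least 1 CPM, 8 (13.6%) were at least 1.5-fold lower in KO and 3 (5.08%) at least 1.5-fold higher, shares close to those of all genes. With a common mix of groups 2 (Marcks and the phospholipase C gene Plcb1, -1.09) were lower and 1 (Plcb3, 0.62) was higher. The list had a median log2 ratio of -0.18 over all cells and -0.091 with a common mix.

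Among the substrates, 2 of 11 were past 1.5-fold and both were lower in KO. Marcks, the classic membrane-bound PKC substrate that binds actin, stood at 20.7 CPM in WT (2864 UMIs) and 5.15 CPM in KO (816 UMIs), a log2 ratio of -2.01 (-2.12 to -1.90) and of -1.49 with a common mix of groups. Marcks was lower in KO in 10 of 10 groups with each interval below 0, from 31.3 and 16.3 CPM in HSC-like cells (log2 ratio -0.94) to 13.2 and 3.28 CPM in granule-high cells of neither leaning (-2.01). Its relative Marcksl1 was at 72.6 and 42.8 CPM (-0.76 over all cells, -0.34 with a common mix), lower in 8 groups and higher in HSC-like cells and the megakaryocyte gate with intervals that included 0. The other 9 substrates lay inside 1.5-fold.

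The next genes include proteins of diacylglycerol-binding families, in which binding was not measured here. The protein kinase D genes Prkd2 (11.7 and 6.39 CPM, log2 ratio -0.87) and Prkd3 (19.1 and 11.5 CPM, -0.73) were lower in KO. Prkd2 was lower in 8 of 10 groups and Prkd3 in 10 of 10, each with the interval below 0 in 5. Rasgrp2, an exchange factor for Rap that is known from platelets and neutrophils, was higher in KO at 123 and 196 CPM (0.67), with intervals above 0 in all 10 groups. The adaptor gene Card9, which links PKCδ to NF-κB in myeloid cells, was at 19.1 and 34.4 CPM (0.85). It was higher in 10 of 10 groups, with the interval above 0 in 9. The diacylglycerol kinase gene Dgkg was at 9.29 and 14.0 CPM (0.59) over all cells but was lower in KO in 6 of 10 groups, with intervals below 0 in 2, HSC-like cells (-0.90) and ungated G2/M cells (-0.71), and above 0 in 3. The polarity partner of atypical PKC, Pard6g, was at 6.64 and 3.83 CPM (-0.79) and lower in 9 groups, with the interval below 0 in 2. With a common mix of groups Prkd2, Prkd3, Rasgrp2, Card9, Dgkg and Pard6g all came inside 1.5-fold, at -0.43, -0.31, 0.31, 0.41, 0.18 and -0.47.

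The study followed an NRF2 branch downstream of PKCα largely through protein assays. It reported higher levels of PKCα and higher NRF2, CPT1A and CPT1B protein in miR-142-/- BCR-ABL LSK cells. A higher CPT1B mRNA level was reported in these cells as well. The study also named the genes of HO-1 (Hmox1) and NQO-1 (Nqo1) as activated by NRF2. The ratios here are of RNA and do not measure those protein levels. In this branch none of the 4 genes above the floor was past 1.5-fold. Nfe2l2, which encodes NRF2, was at 63.3 and 72.8 CPM (log2 ratio 0.20, 0.16 to 0.24) and higher in KO in 10 of 10 groups. Keap1, its inhibitor, was at 46.7 and 41.4 CPM (-0.17), Hmox1 at 2.07 and 2.42 CPM (0.23) and Cpt1a, which carries fatty acids into mitochondria for oxidation, at 23.4 and 22.6 CPM (-0.051, -0.12 to 0.018). The direction of Cpt1a turned with a common mix of groups, to 0.20, and KO was the lower library in 1 of 10 groups. Nqo1 had 170 and 81 UMIs and Cpt1b 119 and 179, under the floor of 1 CPM. Over all cells their log2 ratios were -1.27 (-1.67 to -0.88) for Nqo1, past 1.5-fold, and 0.39 (0.049 to 0.74) for Cpt1b. With a common mix of groups they were -0.48 and 0.44. Nqo1 was lower in KO in 6 of 10 groups and Cpt1b in 2 of 10.

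**Figure D5:**
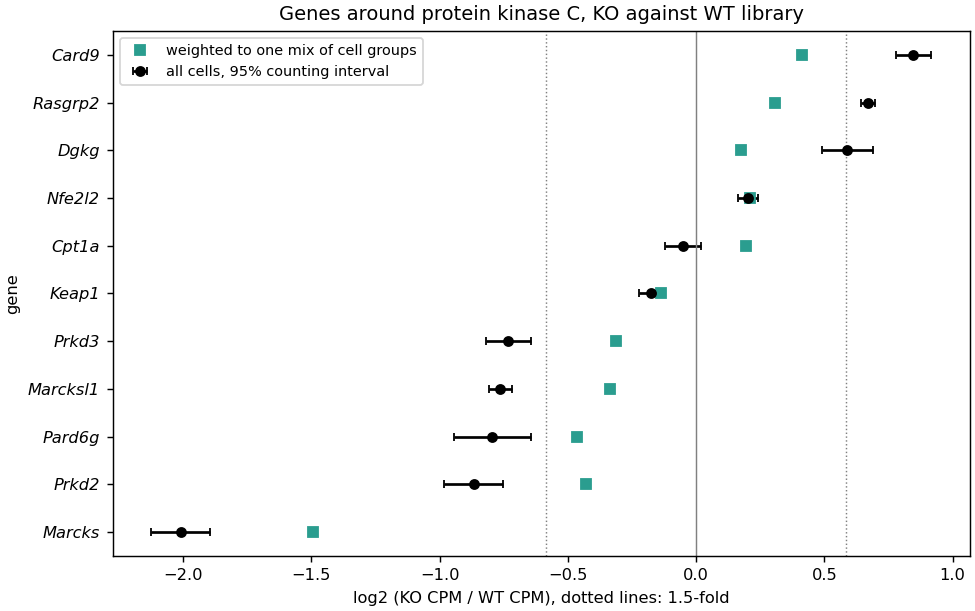
Log2 ratio of KO over WT CPM (horizontal axis) for the listed genes with a mean of at least 5 CPM that lay past 1.5-fold and for Nfe2l2, Keap1 and Cpt1a, over all cells with 95% counting intervals (circles) and weighted to a common mix of cell groups (squares). Marcks lies farthest from 0 in both versions, at -2.01 and -1.49, and the other squares lie within the dotted 1.5-fold lines.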

How the data were processed

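Bone marrow LSK cells from BCR-ABL mice with intact miR-142 (1 library) or miR-142-/- (1 library) were captured with a 10x Genomics 3′ kit. The deposited values are raw UMI counts per gene and barcode, which per the labels and methods the authors made with Cell Ranger 6.1.2 on mm10; the file headers name version 4. The matrices were unfiltered and held 170881210 WT and 187721815 KO UMIs.

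Called cells (8000 or more UMIs, under 10% mitochondrial) held 80.9% and 84.4% of the UMIs. Each cell was scored as UMIs of a marker list per 10000 UMIs, and gates were set by thresholds with at least 2 or 3 markers detected, chosen after the scores were seen. Within 25% of the HSC-like threshold lay 619 WT and 320 KO cells, so gates are ranges and not cell types. Doublets were kept; Scrublet served an alternative. Counts were summed per library and gate. CPM carry exact Poisson intervals, shares exact binomial ones, and ratios exact conditional binomial ones; intervals of weighted ratios are normal approximations. No pseudocount entered the ratios. The ratio step was tested on simulated counts.

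Genes were named by rule: the 8 members, listed pathway genes past 1.5-fold at a mean of at least 5 CPM, the NRF2 genes, and the 3 genes most like each member with 300 UMIs in each library. The members and lists were chosen with earlier results of these data known. Python 3.11 packages included numpy, scipy and scanpy. Gene positions and UTRs were from GENCODE M21. Plcb1 and Plcb3 were named after their values were seen. Other listed genes are given by counts, and some are not reported here.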

Additional observations from a re-analysis of the deposited data

Results flagged for a closer look

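Among the isoform genes, the following values were picked out because the log2 ratio (KO over WT) pointed one way in some cell groups and the opposite way in another, each with a counting interval away from 0. The difference between groups was not tested, since there was 1 library per genotype.

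Prkch was lower in the KO library in HSC-like cells (-0.432) and in ungated non-cycling cells (-0.534), and higher in monocyte-leaning granule-high cells (0.618), where it was at 2.24 and 3.44 CPM, below the 5.72 and 5.17 CPM of free RNA. Prkcq was lower in HSC-like cells (-0.494), in ungated S-phase (-0.565) and G2/M cells (-0.437) and in the basophil/mast gate (-1.05), and higher in monocyte-leaning granule-high cells (1.51), with 23 and 70 UMIs, again below its free RNA level. The part of free RNA in the monocyte-leaning values was not tested.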

How the results depend on the processing

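No paired analysis was possible because each genotype had 1 library. For the same reason no replicate was left out, and the intervals cover counting error only. The alternatives without basophil/mast or granule-high cells, and the divisions of the HSC-like and basophil/mast gates, were chosen after seeing the data.

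The Prkca log2 ratio of -0.59 over all cells became -0.026 with a common mix of cell groups, 0.044 with gate thresholds halved and -0.16 with them doubled, -0.34 with each cell thinned, -0.79 without basophil/mast cells and 0.15 without granule-high cells. The ratio of the summed family, -0.34, became -0.27 with size factors, -0.19 with a common mix, -0.19 with halved and -0.23 with doubled thresholds, -0.26 after thinning, -0.40 without basophil/mast cells and -0.015 without granule-high cells. Of the 8 members, 4 lay past 1.5-fold in the main setting, 2 over barcodes with over 300 UMIs, 2 without granule-high cells (Prkce lower and Prkcb higher), and 1 with a common mix at each of the thresholds or at a fold of 2. Without a filter on low counts 28.5% of genes were 1.5-fold lower and 12.1% higher. Without thinning 22.8% of WT and 17.3% of KO cells had a Prkca UMI. With doubled thresholds Prkca was lower in KO in 3 of 9 groups. Over barcodes with over 300 UMIs Prkcd made up 40.9% (WT) and 48.05% (KO) of the family and Prkce 13.2% (WT). Prkce stayed lower in KO in each setting run, from -0.79 to -1.42. Prkcb, Prkcd and Prkcz changed sign in some settings, within 1.5-fold in the main one. Of 102 further values, 53 were labeled the same as the main value and 49 moved. The same meant inside the counting interval of the main value or, for counts of cell groups, within 1.5-fold of the main count. The cause was not tested.

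Leaving out the 230 WT and 238 KO cells with the highest doublet scores kept each member's direction.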
